A study of Mus musculus with 2 samples.

Results

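The insulin-like growth factor (IGF) system was examined in cultured primary chondrocytes of the mouse, which build the matrix of cartilage, through 10 genes of the deposited count table. The genes were chosen by symbol as the ligands Igf1 and Igf2, the receptors Igf1r and Igf2r, and the binding proteins Igfbp2, Igfbp3, Igfbp4, Igfbp5, Igfbp6 and Igfbp7, and all 10 were among the 21983 genes listed. One library came from wild-type cells given recombinant mouse Sparcl1 protein (50 ng/ml) for 3 days, and 1 came from wild-type cells given phosphate-buffered saline (PBS) for 3 days. All cells were grown in medium with fetal bovine serum, which itself carries IGF proteins, so a transcript level is not the amount of IGF that the cells met. Sparcl1, a relative of Sparc, is secreted into the matrix, and the comparison asks which genes differ in cells exposed to it.

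IGF1 and IGF2 are secreted growth factors that act through the IGF1 receptor, a tyrosine kinase whose signal runs through IRS adaptors, PI3-kinase and AKT. The IGF2 receptor carries IGF2 to the lysosome for destruction, and the binding proteins hold the ligands in fluid and matrix until proteases free them. In cartilage IGF1 is known to drive matrix synthesis and growth of the long bones.

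The library totals were 26871933 gene counts (Sparcl1-treated) and 29858851 (control). Levels are given as CPM (counts per 1000000 after scaling of the libraries), and as CPM per kilobase of exon where genes are compared with each other. Ratios are Sparcl1-treated over control, each with a 95% interval that covers the counting error of reads only. With 1 library per group there is no spread between cultures and no test, so a difference between the libraries has no replicate check. A gene was called higher or lower when its counts summed to 20 or more over both libraries, its log2 ratio was 1 or more in either direction, and its interval left out 0. The chondrocyte collagen gene Col2a1 was abundant, at 7332 CPM in the Sparcl1-treated library and 8629 in the control. Markers of macrophages and osteoblasts were present too, and in bulk RNA fewer cells of a type cannot be told apart from less RNA per cell.

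None of the 10 IGF system genes was called higher or lower. Over all genes, 1.9% of the 13317 genes with at least 20 summed counts passed that rule, 0.954% as higher and 0.946% as lower, so 0 of 10 genes is near the background. The 9 members with at least 20 summed counts had a median log2 ratio of 0.08, beside -0.002 over all genes with that many counts. Ratios lay above 1 for 7 of the 9 and below 1 for 2, where genes with at least 200 summed counts divided into 49.5% above and 50.5% below. No member reached 1.5-fold either, a size that 4.67% of genes passed. The lowest ratios belonged to Igfbp2 and Igf1, and the highest to Igfbp6 and Igfbp7. All 9 ratios lay within the central 95% of the 11194 genes with at least 200 summed counts, which ran from -0.42 to 0.42 on the log2 scale. The counting interval excluded 0 for 7 of the 9, wholly below 0 for 2 and wholly above for 5. An interval that excluded 0 was also found for 45.6% of genes with at least 200 summed counts. The tally of members depends on the scaling, since the lower bounds of Igfbp4 and Igfbp5 lie close to 0.

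**Figure D1:**
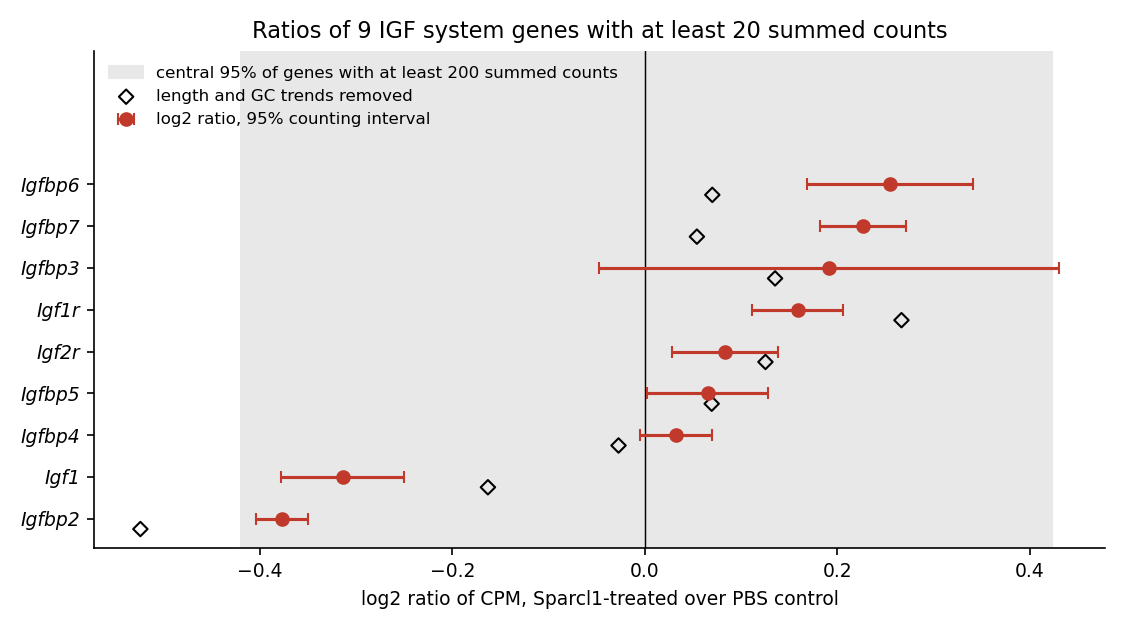
Log2 ratio of CPM (x axis, Sparcl1-treated over PBS control) for the 9 members with at least 20 summed counts (y axis). Filled points carry the 95% counting interval, open diamonds are the ratios after smooth trends with exon length and GC content were removed, and the grey band is the central 95% of genes with at least 200 summed counts. Igfbp2 (-0.38) and Igf1 (-0.31) stand at the low end of the members, and the diamond of Igfbp2 is at -0.52. The band was drawn from ratios without trend removal, so the diamonds cannot be placed against it.

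Per kilobase of exon the levels spanned a wide range, and their order was almost the same in both libraries. Igfbp2 led, with 378 CPM per kilobase after Sparcl1 and 490.2 in the control. Igfbp7 came next at 258 after Sparcl1 and 221 in the control. Igfbp4 stood at 94.9 CPM per kilobase after Sparcl1 and 92.8 in the control, and Igfbp6 at 75.8 after Sparcl1 and 63.5 in the control. Below these binding proteins lay Igfbp5, at 24.6 CPM per kilobase in the Sparcl1-treated library and 23.5 in the control. The receptors and the ligand gene Igf1 formed a middle group. After Sparcl1, Igf2r, Igf1r and Igf1 stood at 20.6, 16.1 and 12.7 CPM per kilobase, against 19.4, 14.4 and 15.8 in the control. Igf1 ranked 8 in the Sparcl1-treated library and 7 in the control, changing places with Igf1r, which was the one exchange among the 10. Igfbp3 was far lower, at 3.52 after Sparcl1 and 3.09 in the control, and Igf2 gave 0.051 after Sparcl1 and 0.053 in the control, from counts that may not reflect its transcript because most of its exon bases are shared with another gene (described with Igf2). The binding protein transcripts other than Igfbp3 thus stood above both receptors and Igf1 in each library, and Igf2 cannot be placed in this order. These levels use the union of all annotated exons of a gene as its length, which lowers the level of genes with long alternative exons.

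**Figure D2:**
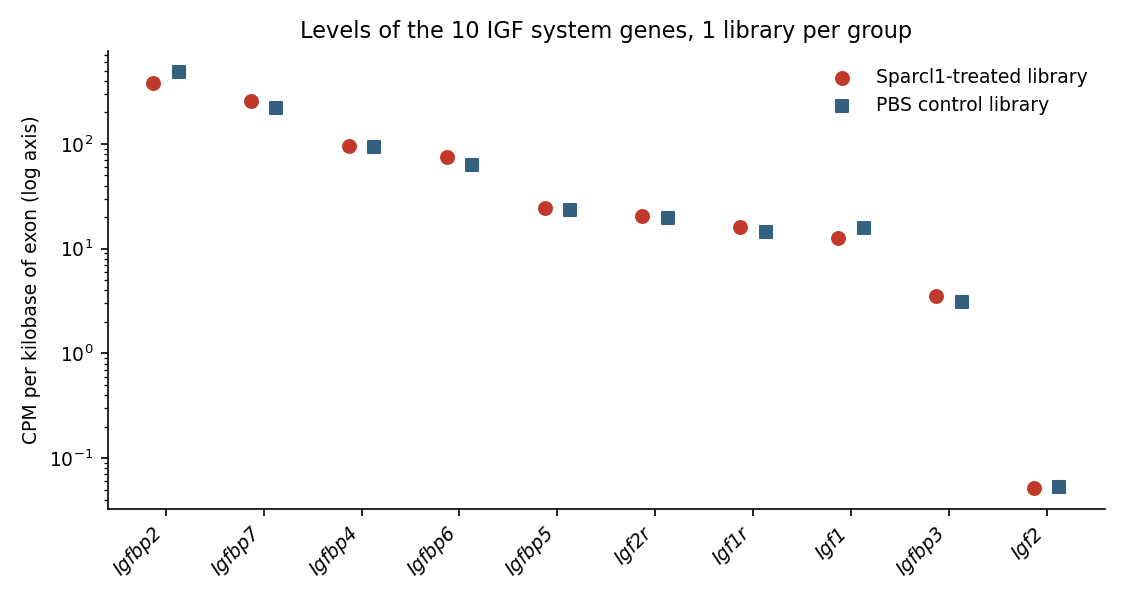
CPM per kilobase of exon (y axis, log scale) of the 10 members (x axis, ordered by mean level) in the Sparcl1-treated library (circles) and the PBS control library (squares), with 1 library per group and no error bars. The levels run from Igfbp2, at 378 (Sparcl1-treated) and 490.2 (control), to Igf2, at 0.051 (Sparcl1-treated) and 0.053 (control), and the symbols of Igf1 and Igf1r exchange order between the libraries. The place of Igf2 rests on counts that may not reflect its transcript.

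Igf1, the ligand gene best known in cartilage growth, had 3420 counts in the Sparcl1-treated library and 4611 in the control. That corresponds to 126 CPM after Sparcl1 and 156 in the control, a log2 ratio of -0.31 (95% counting interval -0.38 to -0.25). Of the genes with at least 200 summed counts, 5.30% had a lower ratio. Igf1 lies on chromosome 10 at 87858265 to 87937042 on the plus strand (GRCm38, the assembly that mm10 names), shares no exon base with another gene on its strand, and has a GC content of 37.96% in its longest transcript. With smooth trends of the ratio with exon length and GC content removed, its log2 ratio was -0.16. Igf1 is also known to be made by macrophages and by bone-forming cells. Over the 20 macrophage markers the median log2 ratio was 0.04, with 11 of 20 above 0 and none at 0 counts, and they summed to 3421 CPM after Sparcl1 and 3113 in the control. Without Lyz2, the most abundant, the other 19 summed to 1781 CPM after Sparcl1 and 1786 in the control. The 9 osteoblast markers with at least 20 summed counts all lay below 0 (median log2 ratio -0.50), and the full list of 10 summed to 6596 CPM in the Sparcl1-treated library and 8617 in the control. Most of that sum is Col1a1, which fibroblasts express too, and the other 9 summed to 287 CPM after Sparcl1 and 412 in the control. The part of either cell type in the Igf1 ratio was not tested.

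Igf2, the ligand of fetal growth, had 8 counts in the Sparcl1-treated library and 9 in the control, or 0.294 CPM after Sparcl1 and 0.305 in the control. At these counts the log2 ratio of -0.05 has a counting interval of -1.63 to 1.49, so no difference was detectable. This count may not reflect the level of the transcript, since Igf2 shares exons with another gene. Igf2 occupies chromosome 7 at 142650766 to 142666816 on the minus strand, and Gm49394, also listed, runs from 142669942 to 142650769 on the same strand and takes in the last exons of Igf2. Of the exon bases of Igf2, 62.8% also belong to Gm49394, and the full 540-base coding sequence of the transcript Igf2-201 lies inside its exons. Gm49394 was listed with 0 counts in both libraries, although 75.9% of its exon bases are those of Igf2. HTSeq in its usual setting assigns a read to neither gene when the read falls in exons of both, but no source used here gives the setting, and its part in the low count was not tested. The join is visible in the sequences, which show the last 30 bases before the shared exon in lower case and the first 60 shared bases, at chr7:142655757-142655816, in capitals.
Igf2-201: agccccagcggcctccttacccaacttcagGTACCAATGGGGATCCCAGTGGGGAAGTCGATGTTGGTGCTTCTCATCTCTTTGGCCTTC
Gm49394-201: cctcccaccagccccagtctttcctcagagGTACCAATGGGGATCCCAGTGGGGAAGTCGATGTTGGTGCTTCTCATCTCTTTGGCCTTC
The upstream exons differ, and from the capitals on both transcripts read the same genomic bases. Over the table, 70.9% of the 406 protein-coding genes with at least 80% of their coding bases shared with another gene had fewer than 20 summed counts, beside 39.1% of the 20709 genes with none shared. The rest of those 406 genes had 20 or more, and why the groups differ was not tested. The other 9 members share no exon base with a gene on their own strand, and of these Igfbp7 alone overlaps a gene on the opposite strand, Polr2b, with 7.03% of its exon bases. Without strand in the counting, reads from that stretch cannot be told apart.

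**Figure D3:**
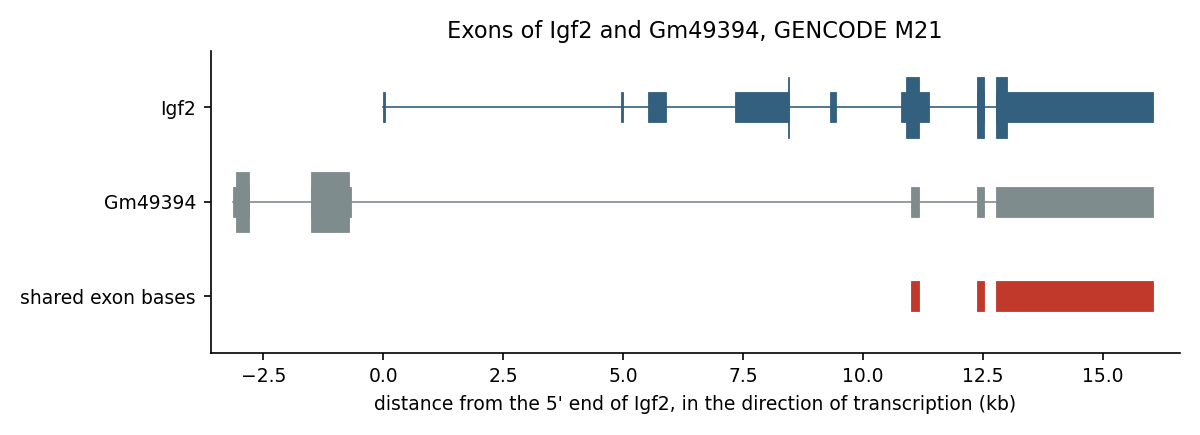
Map of the exons of Igf2 and Gm49394 against the distance from the 5' end of Igf2 in kilobases along the direction of transcription (x axis), with exons as boxes and coding parts as taller boxes. The bottom row marks the exon bases held by both genes, 62.8% of those of Igf2 and 75.9% of those of Gm49394.

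Both receptor genes had slightly higher levels in the Sparcl1-treated library. Igf1r, the signalling receptor, had 7352 counts after Sparcl1 and 7142 in the control, which is 270.3 CPM after Sparcl1 and 242 in the control (log2 0.16, 0.11 to 0.21). Igf2r, which removes IGF2 and also sorts lysosomal enzymes, had 5208 counts after Sparcl1 and 5332 in the control, which is 191 CPM after Sparcl1 and 181 in the control (log2 0.08, 0.03 to 0.14). Summed over both genes the log2 ratio was 0.13 (0.09 to 0.16). Set against each other inside a library, where scaling cancels, Igf1 stood at 0.789 times the per-length level of Igf1r after Sparcl1 and at 1.09 times in the control. Per length, the ligand gene therefore lay below its receptor in one library and above it in the other, a difference of -0.47 on the log2 scale. The crossing depends on the exon lengths used, 9904 bases for Igf1 and 16791 for Igf1r. In CPM, Igf1 (126 after Sparcl1, 156 in the control) lay below Igf1r in both libraries. With the trends removed the ratios of the receptor and the ligand were 0.27 and -0.16. Igf1r lies on chromosome 7 at 67952827 to 68233668 and Igf2r on chromosome 17 at 12682406 to 12769664.

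Igfbp2 was the most abundant member and the one with the lowest ratio. Its protein binds both ligands and can also bind integrins. It had 18966 counts in the Sparcl1-treated library and 26708 in the control. Its level was 697 CPM after Sparcl1 and 905 in the control, a log2 ratio of -0.38 (-0.40 to -0.35). Only 3.39% of genes with at least 200 summed counts had a lower ratio, and the value moved to -0.52 with length and GC trends removed. Igfbp2 (chromosome 1, 72824503 to 72852474, plus strand) and Igfbp5 (72857932 to 72874884, minus strand) face each other tail to tail with 5457 bases between them. Igfbp5, whose protein binds matrix and hydroxyapatite and is frequent in bone and cartilage, had 4015 counts after Sparcl1 and 4162 in the control. Its level was 148 CPM after Sparcl1 and 141 in the control, a log2 ratio of 0.065 (0.0024 to 0.128). The adjacent genes hence had unlike ratios, below 1 for Igfbp2 and close to 1 for Igfbp5, whose interval barely excluded 0. The per-length level of Igfbp2 was 15.4 times that of Igfbp5 after Sparcl1 and 20.9 times in the control.

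The remaining binding protein genes had ratios above 1. Igfbp7, whose protein binds IGFs only weakly and is found in vessel walls and matrix, had 8491 counts in the Sparcl1-treated library and 7870 in the control. This is 312 CPM after Sparcl1 and 267 in the control, a log2 ratio of 0.23 (0.18 to 0.27). Igfbp6, which prefers IGF2 over IGF1, had 2292 counts after Sparcl1 and 2084 in the control. That is 84.3 CPM after Sparcl1 and 70.6 in the control, with a log2 ratio of 0.25 (0.17 to 0.34). Both values came down when the smooth trends were removed, to 0.05 for Igfbp7 and 0.07 for Igfbp6, and their transcripts have GC contents of 58.8% and 60.7%. Igfbp4, known as an inhibitor of IGF action until it is cleaved, was nearly level at 11401 counts after Sparcl1 and 12092 in the control, or 419 CPM after Sparcl1 and 409.9 in the control. Its log2 ratio of 0.03 has an interval that includes 0 (-0.0048 to 0.069), and it was -0.03 with the trends removed. Igfbp3, the main IGF carrier of serum, had 300 counts after Sparcl1 and 285 in the control. Its level was 11.0 CPM after Sparcl1 and 9.66 in the control, and its interval also included 0 (log2 0.19, -0.05 to 0.43). Its neighbour on chromosome 11, Igfbp1, a binding protein of liver, was listed at 0 in both libraries, which at a limit of 3 counts allows up to 0.110 CPM after Sparcl1 and 0.102 in the control. Igfbp3 lies at 7206086 to 7213923 and Igfbp4 at 99041244 to 99054392 on chromosome 11, Igfbp6 on chromosome 15 at 102144362 to 102149511, and Igfbp7 on chromosome 5 at 77349240 to 77408041.

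The make-up of the binding protein transcripts therefore differed between the libraries. Igfbp2 took 41.7% of the 45465 counts of the 6 genes in the Sparcl1-treated library (exact 95% interval 41.3 to 42.2) and 50.2% of 53201 in the control (49.8 to 50.6). Both intervals cover counting error only and hold no spread between cultures. Per length its share was 45.2% after Sparcl1 and 54.8% in the control. The share of Igfbp7 per length was 30.9% in the Sparcl1-treated library and 24.7% in the control, and that of Igfbp6 was 9.08% after Sparcl1 and 7.11% in the control. Summed over the 6 genes the binding proteins stood at 1672 CPM after Sparcl1 and 1803 in the control, a log2 ratio of -0.11 (-0.13 to -0.09). Without Igfbp2 the sum was 974 CPM after Sparcl1 and 898 in the control, and the log2 ratio was 0.12 (0.09 to 0.14). The sign of the summed difference thus rested on Igfbp2. The sums were not recomputed with length and GC trends removed. Under that setting Igfbp3, Igfbp4, Igfbp5, Igfbp6 and Igfbp7 were at 0.14, -0.03, 0.07, 0.07 and 0.05.

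**Figure D4:**
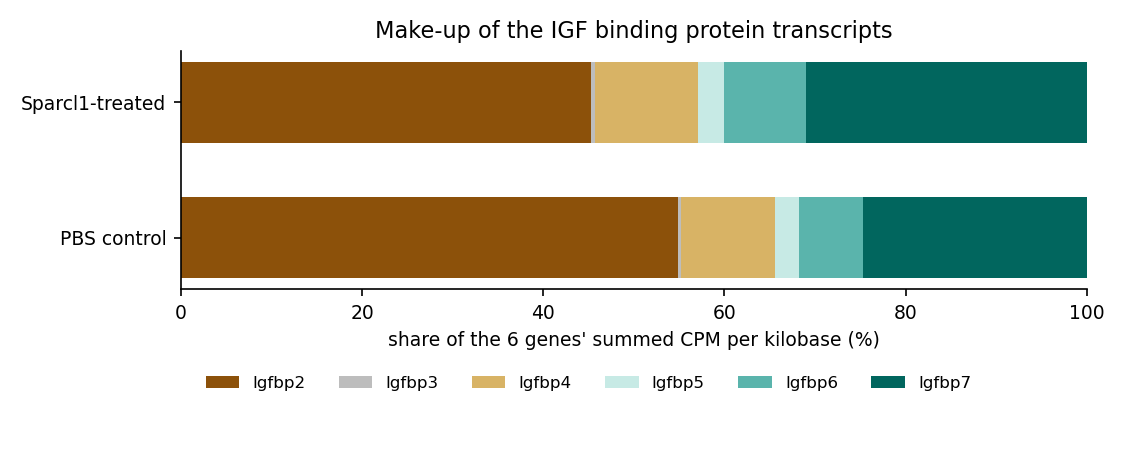
Share of each gene in the summed CPM per kilobase of the 6 IGF binding protein genes (x axis, percent) in the Sparcl1-treated library (upper bar) and the PBS control library (lower bar). Igfbp2 takes 45.2% of the upper bar and 54.8% of the lower, and Igfbp7 takes 30.9% of the upper bar and 24.7% of the lower.

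Promoter windows were read for the members with the lowest and the highest ratios, to show what the genes at each end look like at their start. Each runs from 250 bases before to 50 after a RefSeq transcript start (GRCm38.p6), and all 10 members were found among the RefSeq windows. Capitals mark matches, on either strand, to the TATA box (TATAAA), the GC box bound by SP1 (GGGCGG), the E-box (CACGTG), the CCAAT box (CCAAT) and the AP-1 site (TGANTCA), none of which overlapped in these windows.
Igfbp2 (chr1:72824230-72824529, plus strand): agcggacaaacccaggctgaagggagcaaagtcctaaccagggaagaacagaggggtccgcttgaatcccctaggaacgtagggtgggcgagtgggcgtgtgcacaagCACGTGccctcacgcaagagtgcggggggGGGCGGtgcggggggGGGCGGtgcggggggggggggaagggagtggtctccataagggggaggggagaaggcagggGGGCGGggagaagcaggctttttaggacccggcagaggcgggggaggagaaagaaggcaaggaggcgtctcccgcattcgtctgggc
Igf1 (chr10:87860861-87861160, plus strand): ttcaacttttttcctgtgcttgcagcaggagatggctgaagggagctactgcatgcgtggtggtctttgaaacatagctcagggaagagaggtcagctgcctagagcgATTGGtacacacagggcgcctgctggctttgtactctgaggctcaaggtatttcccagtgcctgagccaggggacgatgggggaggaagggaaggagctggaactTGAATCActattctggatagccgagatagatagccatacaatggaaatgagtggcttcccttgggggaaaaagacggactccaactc
Igfbp6 (chr15:102143936-102144235, plus strand): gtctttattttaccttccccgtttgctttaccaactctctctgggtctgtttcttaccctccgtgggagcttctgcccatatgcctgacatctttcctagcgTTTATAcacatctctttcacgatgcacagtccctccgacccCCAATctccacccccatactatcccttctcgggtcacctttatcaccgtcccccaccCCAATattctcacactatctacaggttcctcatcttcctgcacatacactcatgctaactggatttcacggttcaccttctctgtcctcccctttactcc
Igfbp7 (chr5:77407996-77408295, minus strand): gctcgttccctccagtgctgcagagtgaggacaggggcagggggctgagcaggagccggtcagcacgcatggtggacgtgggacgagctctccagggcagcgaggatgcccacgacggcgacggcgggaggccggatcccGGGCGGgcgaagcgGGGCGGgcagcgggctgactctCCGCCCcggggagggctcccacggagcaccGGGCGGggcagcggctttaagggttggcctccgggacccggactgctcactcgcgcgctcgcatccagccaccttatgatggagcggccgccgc
The printed windows of Igfbp2 and Igfbp7 are rich in G and C (67.0% and 73.3%) and hold 3 and 4 GC boxes, a motif present in 35.7% of all 32851 such windows. Those of Igf1 and Igfbp6 have 52.3% and 49.7% G and C and no GC box. The Igf1 window holds 1 AP-1 match and 1 CCAAT box, found in 7.81% and 37.4% of windows, and its start lies 2846 bases from the outermost GENCODE start of the gene. The Igfbp6 window holds 2 CCAAT boxes and 1 TATA match (13.6% of windows), and its start lies 176 bases upstream of the GENCODE start, so the whole window falls before the GENCODE gene. Igfbp2 alone of these 4 has an E-box, which 7.15% of windows hold. A further RefSeq start of Igfbp2, 884 bases from the GENCODE start, has a window (chr1:72825137-72825436) with 57.3% G and C, 1 AP-1 match and neither a GC box nor an E-box. The median over all windows is 52.7% G and C. These matches are a description of the letters only.

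Proteases that cleave the binding proteins, and so release IGFs, were listed together with the inhibitors of such proteases. Of the 7 genes 6 had at least 20 summed counts, none was called, and 5 of the 6 ratios lay below 1 (median log2 -0.26). Length and GC trends were removed for the 10 members only. The ratios and medians of this and the other lists are without that removal. Pappa, the protease that cleaves Igfbp4 protein, had 628 counts after Sparcl1 and 969 in the control (log2 -0.51, -0.66 to -0.36). Pappa2, which cleaves the proteins of Igfbp3 and Igfbp5, had 513 after Sparcl1 and 728 in the control (-0.39, -0.55 to -0.22). Stc2, whose product stanniocalcin inhibits the Pappa protease, had 315 after Sparcl1 and 497 in the control (-0.54, -0.75 to -0.33), so the protease and its inhibitor had ratios of similar size. Stc1, the related inhibitor, was at 0.09 with 2577 counts after Sparcl1 and 2634 in the control. The serine protease genes Htra1 and Htra3 were at -0.13 and -0.10, with Htra1 the most abundant of the list at 256 CPM after Sparcl1 and 280.1 in the control.

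Downstream of the receptor, none of 33 adaptor and PI3-kinase to AKT genes with at least 20 summed counts was called, and the median log2 ratio was -0.04, with 13 ratios above 1 and 20 below. Grb10, an imprinted adaptor that restrains the receptor, was the most abundant at 355 CPM after Sparcl1 and 366 in the control (log2 -0.04). Akt1, the central kinase, was at 0.08 and the adaptor gene Shc1 at 0.19. The insulin receptor substrate genes went apart: Irs1 had 1529 counts in the Sparcl1-treated library and 1981 in the control (-0.26, -0.35 to -0.16), while Irs2 had 581 after Sparcl1 and 537 in the control (0.23, 0.06 to 0.40). Irs3, an adaptor gene with 35 counts after Sparcl1 and 19 in the control, fell just short of a call at a log2 ratio of 0.9985 (0.15 to 1.89) and passes the size when total counts serve as library sizes. Irs1 and Irs3 were named after their values were seen. Rictor, a subunit of the mTOR complex that acts on AKT, had the lowest ratio of the list among genes with at least 200 summed counts, at -0.28. Insr, the insulin receptor gene, was at -0.09 with 1347 counts after Sparcl1 and 1555 in the control, and Ins1 and Ins2, the insulin genes, were listed at 0 in both. Of the list of 9 other ligands, receptors and carriers, 3 had at least 20 summed counts and 6 were at 0. Igfals, whose product holds IGF and Igfbp3 protein in a serum complex, had 48 counts after Sparcl1 and 36 in the control (0.53, -0.12 to 1.20). Pik3r2, a regulatory subunit gene of PI3-kinase, was also listed at 0.

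Among 10 measured targets of AKT and FOXO factors the median log2 ratio was 0.01, with 5 above 0 and 5 below. Sgk1, a kinase of the AKT group, had 17407 counts after Sparcl1 and 14766 in the control (log2 0.35), Klf15 was at -0.36 and Sesn3 at -0.28. The growth hormone axis, which controls Igf1 in liver, had a median of -0.08 over 6 genes, with the receptor gene Ghr at -0.21 (1313 counts after Sparcl1, 1647 in the control) and the feedback inhibitor gene Cish at 0.18 from 142 counts after Sparcl1 and 136 in the control. The IGF2 mRNA-binding protein genes were near level at a median of -0.03 over 3, led by Igf2bp2 with 510 counts after Sparcl1 and 563 in the control. The 5 measured genes on the list of imprinted growth genes had ratios below 1 (median -0.19), but Igf2r (0.08) and Grb10 (-0.04), also imprinted, are not on that list. Of the 5, Mest had 3591 counts after Sparcl1 and 5106 in the control (-0.39) and Peg3 had 540 after Sparcl1 and 858 in the control (-0.55). H19, Igf2os, Airn and Meg3 were also on that list but were not among the genes listed with counts. No gene of these lists was called.

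**Figure D5:**
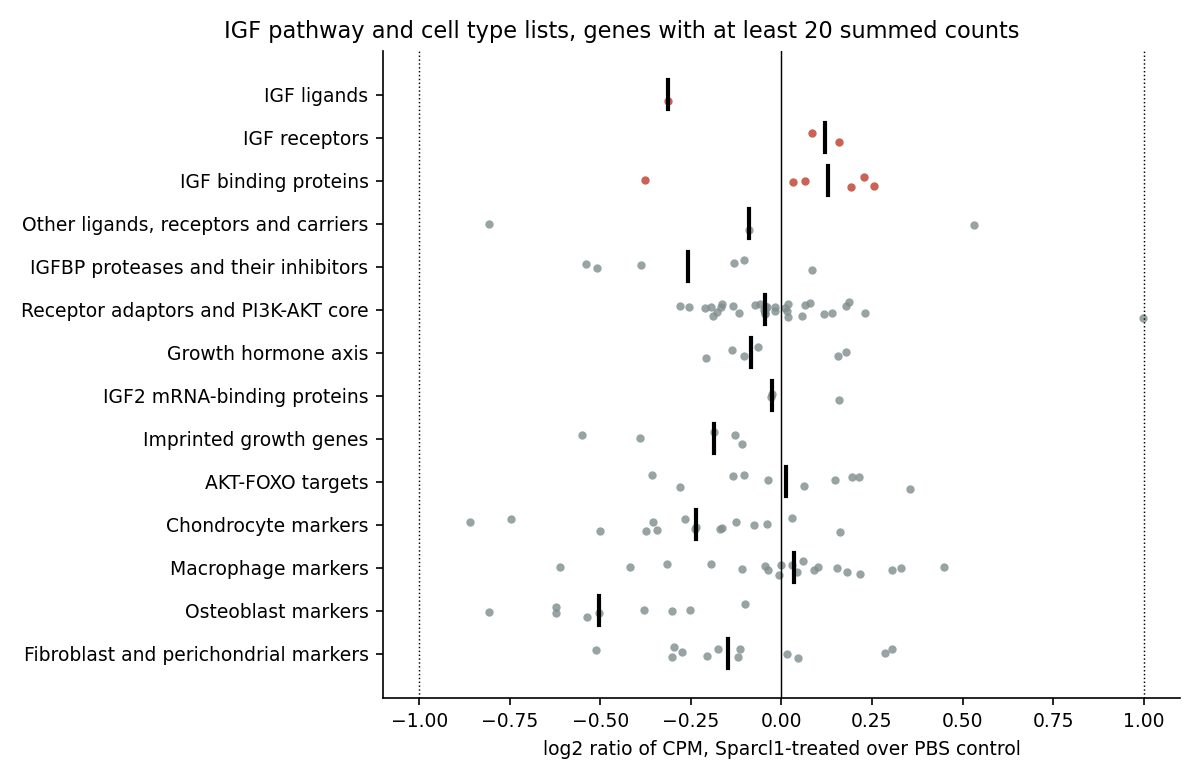
Log2 ratio of CPM (x axis, Sparcl1-treated over PBS control) of genes with at least 20 summed counts in the IGF system (red) and in related and cell type lists (grey), 1 point per gene, with black bars at the list medians and dotted lines at the size needed for a call. Osteoblast markers (median -0.50), proteases of the IGF binding proteins together with their inhibitors (-0.26) and chondrocyte markers (-0.24) lie to the left of 0, and no gene is called. All ratios drawn are without removal of length and GC trends. Endothelial, muscle and adipocyte lists are not drawn.

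Chondrocyte and fibroblast markers also leaned to the control side. Of 16 chondrocyte markers 14 had ratios below 1 (median log2 -0.24), and the list summed to 11928 CPM after Sparcl1 and 13602 in the control. Acan, the gene of the proteoglycan aggrecan, was at -0.50 and Sox9, the chondrocyte master regulator, was at -0.24 (named after its value was seen). Comp, among the 3 most abundant of the list, was at 0.03, with 2967 CPM after Sparcl1 and 2909 in the control. Fibroblast and perichondrial markers had a median of -0.15 over 12, with 8 below 0 and a summed level of 14527 CPM after Sparcl1 and 16998 in the control. Their ratios ran from -0.51 for Postn to 0.31 for Pdgfra, with Dcn at 0.02. Endothelial markers summed to 7.54 CPM after Sparcl1 and 9.90 in the control over 10 genes, with a median log2 ratio of -0.20 over the 4 that had at least 20 summed counts, 2 above 0 and 2 below. Muscle and adipocyte markers summed to 4.71 CPM after Sparcl1 and 3.42 in the control, with Myod1, Ckm and Cidec at 0 in both. Igfbp2, at -0.38, lay between the chondrocyte and the osteoblast medians. The osteoblast median is the ratio of a gene with only 13 counts after Sparcl1 and 20 in the control (interval -1.63 to 0.57). The part of cell make-up in the ratios of Igfbp2, Igfbp6, Igfbp7 and the receptors was not tested.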

How the data were processed

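RNA from 1 Sparcl1-treated and 1 PBS-treated culture of primary mouse chondrocytes was sequenced. The authors deposited whole-number counts per gene symbol, made with Trimmomatic, FastQC, STAR and HTSeq on mm10, per the submitters' processing notes. The sources used here give no versions, annotation or strand setting. Of 21983 symbols 21900 (99.6%) were matched to GENCODE M21 (GRCm38), 21823 of them protein-coding, which gave coordinates, exon lengths and GC content. Counts were scaled with trimmed-mean-of-M-values (TMM) factors, 1.01 (Sparcl1-treated) and 0.988 (control), from edgeR 4.0.16 in R 4.3.3. Intervals are exact Clopper-Pearson intervals (95%, scipy 1.17.1) on the treated library's part of a gene's counts. Reads amplified by PCR, with no molecular identifiers, cannot be taken as separate molecules, and the intervals cover counting error only. Only the ratio, its interval and the call were tried on simulated counts, which held counting error alone and were scaled by total counts. TMM scaling, annotation matching, trend removal and spread between cultures were not covered by that trial. Alternatives were other scalings, including DESeq2 1.42.0 size factors, other filters and sizes, a wider interval, a prior count, list means, and removal of lowess trends with exon length and GC content (statsmodels 0.14.6), fitted over genes with at least 200 summed counts.

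The members and lists were chosen with earlier results of these data known. All 10 members are named. Of the other lists, the rule names members that were called, the 3 most abundant, and the highest and lowest ratio with at least 200 summed counts. Members are also mentioned outside this rule where a role needed them: Pappa and Pappa2, like those marked in the text, were named after their values were seen.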

Additional observations from a re-analysis of the deposited data

How the results depend on the processing

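None of the 10 members was called higher or lower under any scaling, filter, size (1.5-fold and 3-fold included) or wider interval tried. Of 50 member ratios under the other scalings, trend removal and a prior count of 2, 49 kept the sign of the reported value. The exception was Igfbp4, at -0.03 with trends removed, and the cause was not tested. A scaling adds the same small constant to all log2 ratios, and a prior count hardly moves well-counted genes, so few signs could change. With trends removed, Igf1, Igf1r, Igfbp2, Igfbp4, Igfbp6 and Igfbp7 moved outside their counting intervals. The ratios and medians of the other lists were not recomputed with trends removed. Total counts as library size raised every log2 ratio by 0.03. That took Igfbp2 to -0.34, outside its counting interval, and lifted the interval of Igfbp4 wholly above 0. With DESeq2 or upper-quartile scaling the interval of Igfbp5 included 0. The counts over all genes depended on the settings: 127 higher and 126 lower became 201 and 198 with no count filter, 20 and 38 with at least 100 summed counts, 309 and 313 at 1.5-fold, and 44 and 36 at 3-fold. With intervals widened for an assumed coefficient of variation of 0.2, 84 genes were higher and 92 lower, and with total counts as library size 141 and 116. Changes of filter or size alter which genes can pass by construction. No paired analysis was possible because there is 1 library per group, and no replicate could be left out. Igf2 had the fewest counts of the members, 17 summed, and this count may not reflect its transcript.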
